A study of Mus musculus with 36 samples.

Results

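The clustered protocadherin genes of the mouse were examined for DNA methylation in a pre-B cell line, with each variable first exon as the unit. The genes were the protein-coding genes of the GENCODE M21 annotation (GRCm38) whose names begin with Pcdha, Pcdhb or Pcdhg, which lie between positions 36930184 and 37841873 of chromosome 18. They give 57 variable exons, 14 in the alpha group, 22 in the beta group and 21 in the gamma group, and the name Pcdha11 belongs to 2 of the alpha genes in this annotation. A CpG cluster, a run of listed positions at most 100 bp apart, was counted with these genes where it lay in a gene body or within 2 kb of it. By this rule 22 of the 18009 CpG clusters of the whole series belonged to the locus. They reached 18 of the 57 exons, and 14 exons held positions with a value in all 36 samples.

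Protocadherins are single-pass membrane proteins of the cadherin superfamily. In neurons each cell transcribes its own combination of the clustered genes, and the proteins bind their own kind between cells, which lets a neuron tell its own branches from those of others. In the alpha and gamma groups each variable exon has its own promoter and encodes the whole extracellular and transmembrane part, and it is spliced to constant exons that all genes of the group share. The beta genes are single exons without a constant part. The C-type exons at the end of the alpha and gamma groups (Pcdhac1, Pcdhac2, Pcdhgc3, Pcdhgc4 and Pcdhgc5) differ in sequence from the other variable exons and are used by most neurons. CTCF, cohesin, the DNA methyltransferases and Smchd1 are known to act at the promoters of the locus, and methylated promoters of this family are silent in many tissues.

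Reduced representation bisulfite sequencing (RRBS) was done on 36 samples of B3, a mouse pre-B lymphocyte line. The Ikaros series carried an MSCV retrovirus that encodes HA-Ikaros-ERt2-IRES-GFP, a fusion of the transcription factor Ikaros with an estrogen receptor domain that 4-hydroxy-tamoxifen (4-OHT) activates, while the Control series carried the vector with the ERt2 domain and GFP but no Ikaros. Both series were sampled at 0, 2, 6, 12, 18 and 24 h with 3 biological replicates per condition. The labels give 0.5 µM 4-OHT for every sample, although the methods describe the 0 h samples as not induced. The methods name a single GFP-sorted population per series, so the replicates measure the spread between cultures and batches of it. Series and transduction cannot be told apart.

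The deposited values were smoothed methylation levels, given here in percent, and M-values, their log2 odds. The number of reads behind a value is unknown, and only the spread between samples describes its precision. In the exon windows, defined as the exon and the 500 bp before it, Control 0 h replicate 1 lacked 32.2% of the values and the next sample lacked 10.5%. In 8 of the 14 complete exons it was the lowest or the highest Control sample, and for Pcdhga3, Pcdha4, Pcdhga5 and Pcdhga10 values without it are given below. The share of all values at exactly 0 or 1 was 21% to 36.2% in Control samples and 26.9% to 59.1% in Ikaros samples. Whether this difference plays a part in the comparisons of the series was not tested, apart from a fit with this share and that of empty positions as covariates. Among the B lineage genes, promoter clusters were measured for Pax5, Ebf1 and Vpreb1, all with mean levels under 1.0%, and none for Cd79a, Cd79b, Blnk or Rag1.

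RRBS reads fragments of DNA cut at CCGG by MspI, so CpGs far from such sites are not read. The 57 exon windows held 59 to 181 CpG dinucleotides each. The alpha exons had a median of 42.0 CpGs per kb, the gamma exons 36.05 and the beta exons 20.5, where the median first coding exon of other genes had 23.1. In the 18 measured exons a median of 21 CpGs lay in MspI fragments of 40 to 220 bp, with a range of 8 to 67, whereas in the 39 exons without listed positions the median was 4 and the range 0 to 30. Of the exons measured, 12 were gamma exons, 5 were alpha exons and Pcdhb5 was the only beta exon. All measured gamma exons were of the A type or the C type, and none of the Pcdhgb exons was measured.

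The 18 measured exons held 650 positions, in which the cytosines of both strands are counted separately. Of these, 559 lay in coding sequence, 71 in untranslated parts of the exons and 20 before the exon. Positions before the exon, where the promoter lies, were listed for 2 exons alone, Pcdhac1 and Pcdhgc3. Positions over the constant exons were not listed in any cluster of the locus. The levels that follow therefore describe mainly the bodies of the variable exons.

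The variable exons were almost fully methylated in both series. The mean level over the samples was over 90% in 16 of the 18 measured exons, and the median exon stood at 94.8%. The exceptions were Pcdhgc3 at 53.7% ± 3.0 (SD, n = 36) and Pcdha8 at 67.5% ± 6.6 (SD, n = 36). Both means rest on the complete positions, 52 of 82 in Pcdhgc3 and 14 of 21 in Pcdha8, and the positions left out lie mainly in methylated stretches. Over all positions with a value Pcdhgc3 had 63.9% ± 4.2 and Pcdha8 had 70.8% ± 5.7 (SD, n = 36). For reference, of the first coding exon windows of other protein-coding genes with complete positions, 7395 in number, 28.9% had a level over 90%, 63.4% had a level under 10%, and the median was 0.664%. The positions of the protocadherin exons lie mainly in exon bodies. Which part of their windows the positions of the other genes cover, start or body, was not examined, so the sets may not be alike. Of all single positions in the series 36.2% were over 90%, against 87.8% of the 650 positions in the protocadherin exons, and none of the 650 was under 10%. These shares are descriptions, since neighbouring positions are smoothed together and share their samples.

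**Figure D1:**
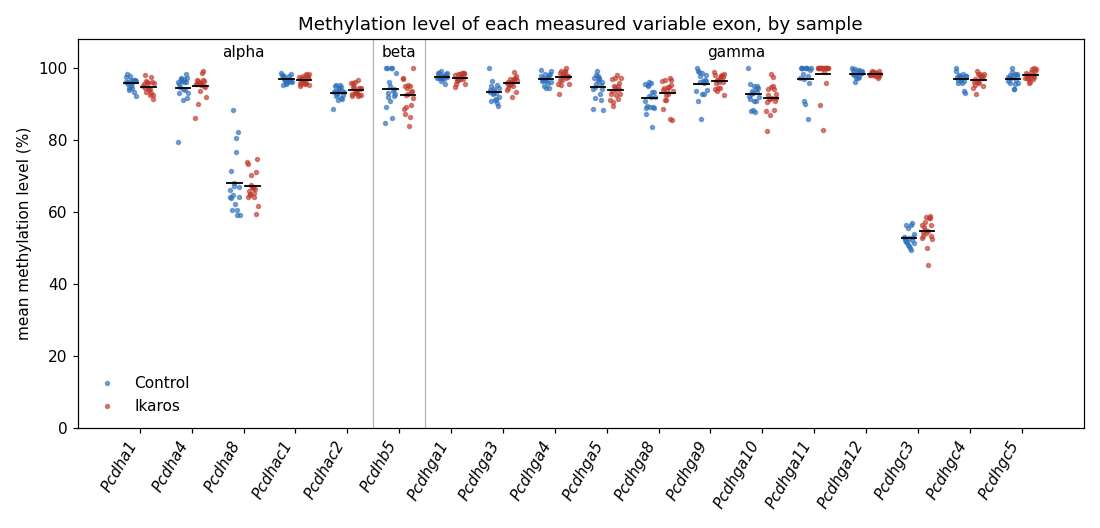
Mean methylation level in percent (vertical axis) of the 18 measured variable exons in chromosomal order (horizontal axis), a point per sample, with Control in blue, Ikaros in red and the series mean as a black bar. Apart from Pcdha8 at 67.5% and Pcdhgc3 at 53.7%, the exon means lie above 90%, and the series overlap in every exon. Pcdhb5, Pcdhga9 and Pcdhgc5 are without Control 0 h replicate 1, and Pcdhga11 has values in 34 samples.

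In the alpha group the order of the mean levels was Pcdhac1, Pcdha1, Pcdha4, Pcdhac2 and Pcdha8. Pcdhac1, whose 40 complete positions run from 30 to 477 bp from the exon start, had 96.7% ± 1.0 (SD, n = 36), with the lowest, median and highest Ikaros sample at 94.9%, 96.9% and 98.2% and the Control samples at 95.3%, 96.5% and 98.5%. The 11 positions before the exon, from 64 to 1 bp ahead of it, are not part of that mean, since Control 0 h replicate 1 lacks them. They had 98.01% ± 2.5 in the Ikaros samples (SD, n = 18) and 94.9% ± 3.5 in the Control samples (SD, n = 17), with ranges of 90.1% to 100% and 85.6% to 99.98% that overlap, and this stretch was not tested on its own. Pcdha1 had 95.1% ± 1.7 and Pcdha4 had 94.6% ± 3.6 (SD, n = 36), and they did not differ beyond that spread. The low end of Pcdha4, 79.4%, was Control 0 h replicate 1, and the lowest Ikaros sample stood at 85.9%. Without that Control sample Pcdha4 had 94.98% ± 2.6 (SD, n = 35), and its lowest Control sample stood at 91.0%. Pcdhac2 had 93.5% ± 1.6 (SD, n = 36) over 65 complete positions of the 93 listed in 2 clusters.

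Pcdhb5, the single beta exon with listed positions, had 42 positions at 1826 to 2225 bp from the exon start, and none of them had a value in Control 0 h replicate 1. Over the 28 positions at 1826 to 2082 bp that were complete in the other 35 samples, its level was 93.1% ± 4.5 (SD), and over all 42 positions it was 94.4% ± 3.8 (SD, n = 35). Over the 28 positions the Ikaros samples ran from 83.8% over a median of 92.9% to 100%, and the Control samples from 84.6% over 93.6% to 100%. The series overlapped across nearly their whole ranges. The other 21 beta exons are not represented, and statements on the beta group rest on this exon.

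Among the gamma exons Pcdhga12 had the highest level, 98.3% ± 0.78 (SD, n = 36), followed by Pcdhga11 at 97.6% ± 4.5 (SD, n = 34) and Pcdhgc5 at 97.4% ± 1.5 (SD, n = 35). These neighbours in the order did not differ beyond their spread. Pcdhga12 had the smallest SD over the 36 samples among the complete exons, and it ran from 97.2% to 99.2% in the Ikaros samples and from 96.0% to 100% in the Control samples, of which the highest without Control 0 h replicate 1 was 99.5%. At the other end stood Pcdhgc3 at 53.7%, Pcdhga10 at 92.2% ± 3.4 and Pcdhga8 at 92.2% ± 3.5 (SD, n = 36). The latter pair did not differ beyond the spread. The remaining gamma exons, Pcdhga1, Pcdhga3, Pcdhga4, Pcdhga5, Pcdhga9 and Pcdhgc4, lay between 94.3% and 97.3%. Over the member exons above 90% with complete positions the median SD over the 36 samples was 1.7 percentage points, and over all units of the series above 90% it was 1.6.

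Among the C-type exons Pcdhgc3 stood apart. Pcdhgc4 had 96.8% ± 1.6 (SD, n = 36), Pcdhgc5 had 97.4%, Pcdhac1 had 96.7% and Pcdhac2 had 93.5%, whereas Pcdhgc3, which lies next to Pcdhgc4, had 53.7%. Its samples ran from 45.1% over a median of 54.9% to 58.9% in the Ikaros series and from 49.3% over 52.4% to 56.9% in the Control series. Every sample of Pcdhgc3 was thus below every sample of the 16 exons over 90%.

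The mean of Pcdhgc3 (exon at 37806410 to 37808977) combined a low and a high stretch. Stretches were delimited after their values were seen and are described without a test. The 9 positions from 127 to 76 bp before the exon had a level of 16.2% ± 11 in the Ikaros series and 14.1% ± 7.5 in the Control series (SD, n = 18 each). The 20 positions in the first 69 bp of the exon, which lie in its 5′ untranslated part, had 25.7% ± 7.1 and 22.0% ± 4.0. In that stretch the Ikaros samples ran from 7.36% over a median of 26.2% to 38.0% and the Control samples from 16.5% over 21.3% to 29.7%, so that the Ikaros range enclosed the Control range. Between 143 and 357 bp, past the start of the coding sequence at 138 bp, the level was intermediate and differed widely between samples, from 4.36% to 92.8% in the Ikaros series and from 17.7% to 88.3% in the Control series. The position means rose along this stretch from 41.6% to 80.1% in the Ikaros series and from 35.4% to 82.1% in the Control series.

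From 398 bp onward Pcdhgc3 was methylated like the other exons. The 10 positions from 398 to 524 bp had 95.9% ± 3.4 in the Ikaros series (SD, n = 17) and 91.4% ± 12 in the Control series (SD, n = 18), where the lowest sample, Control 6 h replicate 3, stood at 50%. The separate cluster at 919 to 1170 bp had 97.4% ± 1.4 and 96.9% ± 1.7 (SD, n = 18 each). Within a sample the step from the first 69 bp to this second cluster was 73.3 percentage points ± 6.2 (SD, n = 36), with a range of 59.1 to 91.3, and it was upward in 36 of 36 samples. Of the 2 exons with positions before the exon, Pcdhgc3 was thus low there and Pcdhac1 high.

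Pcdha8 (exon at 36992371 to 36994848) held the other low stretch, inside the coding sequence. Its 21 positions run from 360 to 744 bp from the exon start. At 360 to 394 bp the level was 95.3% ± 1.9 in the Ikaros series and 93.4% ± 1.6 in the Control series (SD, n = 18 each). At 422 to 449 bp, over 3 positions, it was 80.4% ± 5.5 and 70.9% ± 4.2, higher in Ikaros by 9.47 percentage points, with ranges of 74.7% to 100% and 66.1% to 80.4% that overlap. At 499 to 566 bp the order of the means turned, with 25.04% ± 9.6 in Ikaros and 35.8% ± 23 in Control over 5 complete positions (SD, n = 18 each). The Ikaros samples ran there from 9.98% over a median of 23.0% to 45.8%, and the Control samples from 10.3% over 27.0% to 93.1%. All Ikaros samples were under 50%, and 4 of the 18 Control samples were above it, namely Control 2 h replicate 3 at 93.1%, Control 18 h replicate 3 at 75.8%, Control 12 h replicate 3 at 63.4% and Control 12 h replicate 2 at 63.1%. At 678 to 744 bp the level was back at 89.3% ± 5.1 in the Ikaros series (SD, n = 18) and 88.3% ± 4.6 in the Control series (SD, n = 11). A further position at 582 bp had a value in 29 samples, with means of 9.87% in Ikaros and 12.2% in Control, and is left out of the stretch. No Control sample exceeded 29.9% there. In 29 samples with values at 678 to 744 bp the low stretch, with 582 bp, lay 47.6 to 81.9 percentage points lower. The highest Control sample at 678 to 744 bp stood at 93.45%, so the 4 Control samples above 50% had no values there. The low stretch thus rests on few CpGs, and the smoothing joins each of them to its neighbours.

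The lower stretch of Pcdha8 was below its 360 to 394 bp stretch in 35 of 36 samples, by a mean of 63.9 percentage points ± 19 (SD). Of the 650 positions, 39 had a mean level under 50%, and all of them lay in Pcdha8 or Pcdhgc3.

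**Figure D2:**
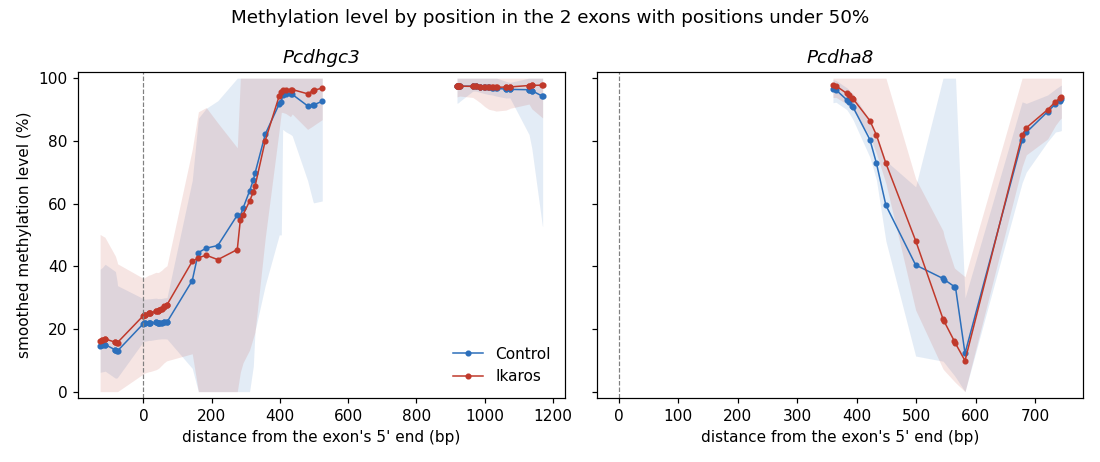
Smoothed methylation level in percent (vertical axis) by distance in bp from the 5′ end of the exon (horizontal axis) for Pcdhgc3 and Pcdha8, with the mean of the 18 Control samples in blue, of the 18 Ikaros samples in red and the range of the samples as shading. Pcdhgc3 rises from 16.2% and 14.1% before the exon to over 90% from 398 bp onward, and Pcdha8 falls to means of 25.04% and 35.8% between 499 and 566 bp and returns to means of 89.3% and 88.3% over 678 to 744 bp.

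The 3 groups were compared by the mean over their exons in each sample, as a description. The alpha mean was 89.5% ± 1.7 over 5 exons and the gamma mean 90.7% ± 0.93 over 9 exons (SD, n = 36). The alpha mean was below the gamma mean by 1.22 percentage points ± 2.0 (SD), and it was the higher of the pair in 8 of 36 samples. The SD describes the spread over samples and not the precision of the mean difference. Over all positions with a value, which adds 3 gamma exons, alpha was below gamma by a larger amount, with a difference of -2.88 percentage points ± 1.8 (SD), and it was the higher in 2 of 36 samples. When every position was given the same weight in place of every exon the alpha mean was the higher by 5.88 percentage points, and in that mean Pcdhgc3 counts with its 52 complete positions. Without Pcdha8 and Pcdhgc3 the groups stood at 94.96% and 95.32%, and the difference was -0.36 percentage points ± 1.6 (SD). For the beta group no position was complete. With the positions that had a value, Pcdhb5 stood at 94.4% beside an alpha mean of 90.2% and a gamma mean of 93.1% over 12 exons, and beta minus gamma was 1.35 percentage points ± 3.9 (SD, n = 35). That order rests on the low exons. Without Pcdha8 and Pcdhgc3 the alpha mean was 95.03% and the gamma mean 95.8%, beta minus gamma was -1.31 percentage points ± 4.0 with beta the higher in 10 of 35 samples, and alpha minus beta went from -4.12 ± 4.1 to 0.71 ± 4.1 (SD, n = 35). Within the series the alpha mean was 89.4% ± 1.1 in Ikaros and 89.5% ± 2.2 in Control, and the gamma mean 90.9% ± 1.0 and 90.5% ± 0.81 (SD, n = 18 each).

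The difference between the series was tested for each unit of the genome with limma on M-values, with the time point as a factor and Benjamini-Hochberg adjustment over 16732 units. None of the 14 complete protocadherin exons passed an adjusted p of 0.05, whereas 810 units of the series did, which is 4.84% of those tested. At an unadjusted p under 0.05 there were 2 of the 14, Pcdhga3 and Pcdhac2, and 14.9% of all units. Of the 14 exons 7 had the higher M-value in Ikaros and 7 in Control, while 63.6% of all units were higher in Ikaros. The median size of the M difference, whatever its sign, was 0.16 in the 14 exons and 0.10 over all units. In all 18 measured exons the ranges of the series overlapped. Without Control 0 h replicate 1, on the same positions, 1 of the 14 passed, Pcdhga3 with an adjusted p of 0.00977 (5.16% of all units called). Over the positions complete in the other 35 samples, 17 exons could be tested, and none passed (5.18% of all units called). In that fit Pcdhb5 differed by -0.51 ± 0.40 on the log2 scale (SE, adjusted p of 0.598) and Pcdhgc5 by 0.43 ± 0.24 (SE, adjusted p of 0.408).

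A missed threshold does not show equal levels, and the intervals give the size of difference that these data allow. On the level scale the 95% intervals of the 14 exons lay between -5.62 and 3.93 percentage points, each taken singly, and 12 of them included 0. The widest was that of Pcdha8, from -5.62 to 3.68, and the tightest that of Pcdhga12, from -0.67 to 0.43. After Pcdhga3, the largest differences among the 14 were those of Pcdhgc3 with 1.95 percentage points (0.083 to 3.82), Pcdhga8 with 1.52 (-0.89 to 3.93), Pcdha8 with -0.97 and Pcdha1 with -0.93 (-1.99 to 0.14). Without Control 0 h replicate 1, Pcdhga5 with -1.09 took the place of Pcdha1, which had -0.83. The adjusted p-values of Pcdhgc3, Pcdhga8, Pcdha8 and Pcdha1 were 0.615, 0.509, 0.881 and 0.764 in the limma fit of the M-values. For Pcdha8 the M difference was 0.10 ± 0.24 (SE), opposite in sign to the difference of the levels. Pcdhac2 had 93.9% ± 1.4 in Ikaros and 93.1% ± 1.7 in Control (SD, n = 18 each), an M difference of 0.30 ± 0.14 (SE) and an adjusted p of 0.314. With replicate 1, 2 or 3 left out, its M difference was 0.12, 0.33 and 0.44, with limma adjusted p of 0.785, 0.495 and 0.306. Over the positions complete in the samples other than Control 0 h replicate 1 it was 0.17, with an adjusted p of 0.649.

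**Figure D3:**
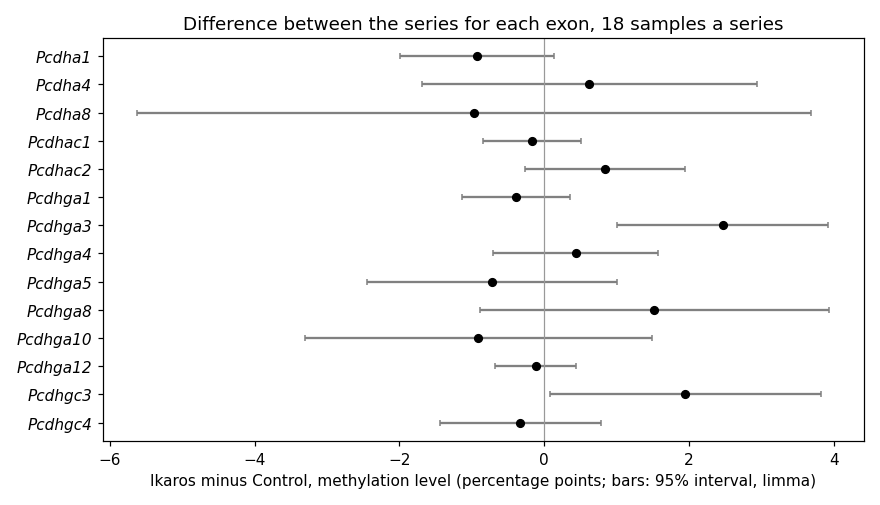
Ikaros minus Control methylation level in percentage points (horizontal axis), with the 95% interval of the limma fit as bars, for each of the 14 complete exons (vertical axis). The interval of Pcdhga3, 1.00 to 3.92, and that of Pcdhgc3 lie above 0, and the other 12 include 0.

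Pcdhga3 (exon at 37674307 to 37676907) came nearest to the threshold. The Ikaros samples ran from 91.8% over a median of 96.0% to 98.9%, and the Control samples from 89.3% over 93.2% to 100%. Ikaros lay higher on average, but the highest sample of all was Control 0 h replicate 1 at 100%. The means were 95.7% ± 1.7 and 93.2% ± 2.5 (SD, n = 18 each), a difference of 2.46 percentage points with a 95% interval of 1.00 to 3.92. On M-values the difference was 0.71 ± 0.23 (SE) with a limma adjusted p of 0.0804. Ikaros was the higher at 5 of the 6 times, with differences of -0.35, 1.54, 2.58, 1.65, 5.38 and 3.96 percentage points from 0 to 24 h. The difference at 0 h rests on Control 0 h replicate 1. Without it the Control 0 h mean was 93.4% over 2 samples, the difference was 1.84 and Ikaros was the higher at 6 of the 6 times. Ikaros was also the higher within each replicate number, by 1.30, 4.11 and 1.98 percentage points for replicates 1, 2 and 3. The value for replicate 1 includes Control 0 h replicate 1. Replicates 1 and 3 are a batch each, and replicate 2 joins batch 2 at 0 h to batch 3 at the later times. The same sign in all 3 replicate numbers was found in 4 of the 14 exons, Pcdha1, Pcdhga1, Pcdhga3 and Pcdhgc3.

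The call of Pcdhga3 changed with the processing. With levels in place of M-values it passed with an adjusted p of 0.0350 (5.41% of all units called), without the 0 h samples with 0.00867 (4.64% called) and without replicate 1 with 0.0275 (2.38% called). Without replicate 2 the M difference was 0.46 with an adjusted p of 0.594. Without replicate 3 it was 0.72, close to that with all samples, with an adjusted p of 0.405. On the same 17 positions without Control 0 h replicate 1 the Control mean was 92.8% ± 1.9 (SD, n = 17), with a highest sample of 96.2%, the difference 2.86 percentage points and the M difference 0.84, which passed with an adjusted p of 0.00977. It moved the other way when more positions were used. The 17 complete positions are a part of the 42 listed, and the pair at 974 and 975 bp had 83.1% ± 13 in Ikaros and 74.6% ± 11 in Control (SD, n = 18 each). Over the other 15 complete positions the means were 97.4% ± 1.7 and 95.7% ± 2.2. The 15 listed positions from 476 to 878 bp, of which 3 are complete, were lower in Ikaros, at 94.0% ± 2.9 and 95.5% ± 3.5. Over all 42 positions with a value the means were 95.2% ± 1.4 and 94.6% ± 2.4, an M difference of 0.18 with an adjusted p of 0.742. Over the positions complete in the samples other than Control 0 h replicate 1, which are more, the M difference without that sample was 0.28 and the adjusted p 0.553. The exons most like Pcdhga3 over the 36 samples were Pcdhgc3 with a Pearson r of 0.40, Pcdhgc4 with 0.29 and Pcdhga8 with 0.18, given as a description since all values share their libraries.

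Change over time was tested within each series, and the courses were compared by the interaction of series and time, with limma F tests. No protocadherin exon of the 14 was called in the Ikaros series, in the Control series or for a different course, at a background of 0% (0 units), 0.012% (2 units) and 0% (0 units) of the 16732 units. At an unadjusted p under 0.05 there were 0, 1 and 1 of the 14, against 5.21%, 4.83% and 5.12% of all units. With 3 replicates per time the F tests could find only large changes. In simulated data with these means and spreads, 200 units were shifted by 4 residual SDs at some times, and 153 were recovered in the Ikaros series, 172 in the Control series and 100 for a different course. With a shift of 2 residual SDs there were 4, 1 and 0.

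Of the 14 complete exons Pcdhga5 had the smallest p for a change in the Control series, with an adjusted p of 0.549. Its Control means were 93.3% ± 4.4 at 0 h, 93.9% ± 2.0 at 2 h, 98.3% ± 0.76 at 6 h, 96.8% ± 0.41 at 12 h, 93.0% ± 2.1 at 18 h and 92.7% ± 4.0 at 24 h (SD, n = 3 each). Without replicate 1, which stood at 88.5%, the Control 0 h mean was 95.6% over 2 samples. The 6 h samples, from 97.8% to 99.2%, lay above all other Control samples of this exon. In the Ikaros series the means ran from 92.3% to 95.6%, also with the highest at 6 h. The value rests on 8 complete positions of 28, and the call was made without replicate 2 alone, with an adjusted p of 0.0425 and 0.0239% of all units called. Of the 14 complete exons Pcdhga10 had the smallest p for a different course, with an adjusted p of 0.908. Its Ikaros mean was 87.0% ± 4.2 at 0 h and its Control mean 95.9% ± 4.0 (SD, n = 3 each), and at 24 h they were 91.6% ± 0.98 and 93.2% ± 1.3. Control 0 h replicate 1 stood at 100%, and without it the Control 0 h mean was 93.8% over 2 samples. Pcdhgc5, which has no complete position in 36 samples, was tested in the 35 samples without Control 0 h replicate 1, with an adjusted p of 0.514 for a change in the Ikaros series and 0.701 for a different course. Its Ikaros means ran from 96.2% ± 0.75 at 6 h to 99.6% ± 0.47 at 24 h (SD, n = 3 each).

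**Figure D4:**
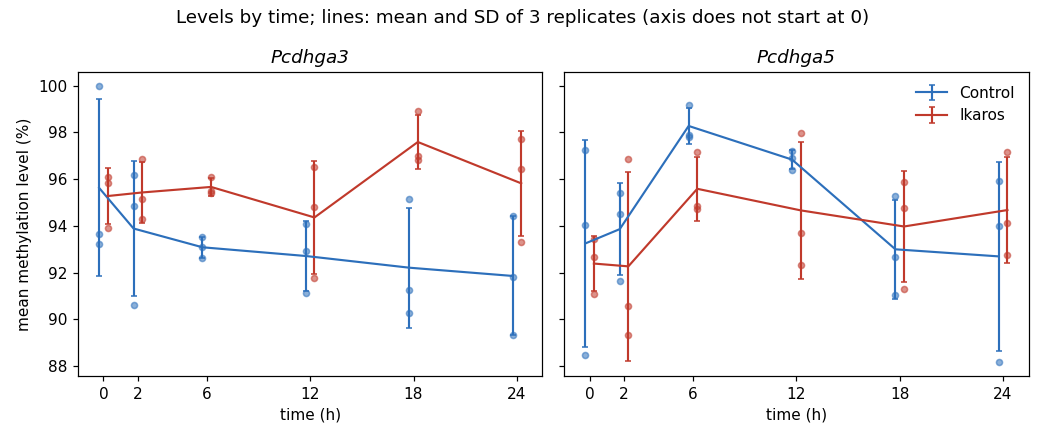
Mean methylation level in percent (vertical axis, not from 0) of Pcdhga3 and Pcdhga5 by time in h (horizontal axis), a point per sample, with lines and bars for the mean and SD of the 3 replicates of Control (blue) and Ikaros (red). Pcdhga3 lies higher in Ikaros from 2 h onward by 1.54 to 5.38 percentage points, and Pcdhga5 peaks in Control at 6 h with 98.3%. Without Control 0 h replicate 1, Pcdhga3 is higher in Ikaros at 0 h too, by 1.84 percentage points. No exon was called for a different course.

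The non-clustered protocadherins, single genes elsewhere in the genome, were also highly methylated. Of the 12 genes on this list, 11 had a complete CpG cluster in the gene body or within 2 kb of it, and 17 of the 18 clusters had a level over 90%. The 11 clusters within 1 kb of a transcription start, of 9 genes, ranged from 91.5% (Pcdh11x) to 98.5% (Pcdh19). A cluster in the body of Pcdh1, which lies within 500 kb of the locus (chromosome 18, 38185826 to 38186121), was the only cluster of this list called between the series. This is 1 of 18 clusters, beside 4.84% of all units. It had 94.8% ± 1.2 in Ikaros and 92.0% ± 1.6 in Control (SD, n = 18 each), with an adjusted p of 0.000398.

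The genes around the locus were mostly unmethylated at their starts. Of 34 protein-coding genes within 500 kb, 18 had a cluster near a transcription start, and 12 of these 17 distinct clusters had a level under 10%. Taf7, a subunit gene of the general transcription factor TFIID between the beta and gamma groups, had 1.28%. Hbegf, which encodes a growth factor of the EGF family, had 95.3%. Counting the clusters in gene bodies too, the list has 20 clusters, and the Pcdh1 body cluster was again the only one called between the series, 1 of 20 beside 4.84% of all units. Of 16 genes whose products are known to act on protocadherin promoters or on DNA methylation, 15 had clusters near a start, and 22 of the 24 clusters were under 10%. Setdb1, a histone H3 methyltransferase gene, had 33.8% and Dnmt3a, a de novo DNA methyltransferase gene, had 19.5% in 1 of its 3 clusters. Rest, which encodes a repressor of neuronal genes, had the only called cluster of this list, 1 of 24 beside 4.84% of all units, with 3.82% ± 0.71 in Ikaros and 2.32% ± 0.75 in Control (SD, n = 18 each) and an adjusted p of 0.0176. Methylation at these promoters is no measure of their expression.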

How the data were processed

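RRBS levels of 36 B3 samples were used. Per the methods and labels, the authors aligned trimmed reads with Bismark 0.10.1 (GRCm38), capped high coverage and applied BiSeq smoothing inside each CpG cluster. The authors deposited the levels as a fraction from 0 to 1 and M-values on a log2 scale, from levels limited to 0.01 to 0.99. Coverage was not given, so no coverage minimum or counting error applies.

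Exons and coordinates are those of GENCODE M21. The unit value was the mean over positions complete in all samples of an exon window (the exon and 500 bp before it), with every other CpG cluster of at least 20 positions as a unit. MspI fragments were read from GRCm38. Tests were run in R 4.3.3 with limma 3.58.1 (lmFit, eBayes) over all units with Benjamini-Hochberg adjustment, and checked on simulated data. Other steps used Python 3.11.15, numpy 2.4.6, pandas 2.3.3, scipy 1.17.1 and matplotlib 3.10.9.

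Groups came from the labels. Replicate numbers pair samples, since the labels tie each number to a batch. Replicates 1 and 3 are batches 1 and 4, and replicate 2 is batch 2 at 0 h and batch 3 later. Same-numbered samples had deviations with mean correlations of -0.00069, 0.00151 and 0.00214 over 66 pairs each for replicates 1, 2 and 3. The exons, lists and tests were chosen with earlier results of these data known. Named were the 3 highest and lowest exons of a group, the 5 largest differences, C-type exons and any exon called. The exons with the smallest p and those called by an alternative alone were singled out after their values were seen. Alternatives were levels, blocks by replicate or batch, whole clusters, the exon alone, all positions with a value, trend and robust limma, and samples left out. A further one took each sample's shares of empty positions and of values at 0 or 1 as covariates, since read coverage was not given. Other data types of the study were not analysed here.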

Additional observations from a re-analysis of the deposited data

How the results depend on the processing

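The count of 0 protocadherin exons called between the series became 1, Pcdhga3, with levels in place of M-values, without the 0 h samples and without Control 0 h replicate 1 on the same positions, and was 0 to 1 with a replicate number left out. The count over time in Control was 0 to 1 with a replicate number left out, the 1 being Pcdhga5 without replicate 2. The other alternatives run for these counts left them at 0, and so did all those run for Ikaros and for a different course. The fit with shares of empty positions and of values at 0 or 1 as covariates was run for the difference between the series alone. It gave Pcdhga3 an M difference of 0.85 with a limma adjusted p of 0.116. The sets without the 0 h samples or Control 24 h replicate 2 were also run for that difference alone. Ikaros 24 h replicate 2, with the largest share at 0 or 1 (59.1%), was not left out on its own. With the replicate block the count between the series was 0 and the lowest adjusted p 0.0949, against 0.0804 without it, and the block changed no call of an exon. Over the alternatives Pcdhga3 kept its direction, with adjusted p from 0.00867 to 0.742. The alpha mean was 92.5% over positions and 94.4% for the median exon, and the gamma mean 86.6% over positions, 93.05% over positions with a value and 95.45% for the median exon. Alpha minus gamma reversed to 5.88 percentage points over positions, where Pcdhgc3 takes a larger weight, and was -2.12 percentage points for the exon alone, -2.88 over positions with a value and -0.36 without Pcdha8 and Pcdhgc3. The set without Pcdha8 and Pcdhgc3, the block on whole clusters and both sets without Control 0 h replicate 1 were added after seeing the data. A beta mean from complete positions could not be given, as no beta position was complete. Coverage per position is unknown here, which limits every value.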

Other observations

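The 2 clusters of the locus outside the exon windows were also methylated. The cluster between Pcdha12 and Pcdhac1 (chromosome 18, 37045805 to 37046042) had 90.1% ± 4.4 in Ikaros (SD, n = 18) and 89.5% ± 2.7 in Control (SD, 35 samples in all), and the cluster past the gamma gene bodies (37842454 to 37842865) had 96.6% ± 3.5 and 98% ± 2.2 (SD, n = 18 each). Outside Pcdha8 and Pcdhgc3, 11 positions had a mean level under 85%, and they lay in Pcdhga3, Pcdhga8 and Pcdhga10. The pair at 745 and 748 bp of Pcdhga8 had 64.5% over the samples, against 93.6% for the 19 positions from 779 to 1216 bp. The position at 748 bp ran from 0% to 74.1% in the Ikaros samples and from 57.3% to 100% in the Control samples, while that at 745 bp, with a value in 34 samples, ran from 49.1% to 72.2% and from 55.3% to 73%. The 0% was Ikaros 24 h replicate 2 and the 100% was Control 0 h replicate 1, both without a value at 745 bp.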
